A study of Homo sapiens with 35 samples.

Results

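ZNF608 and ZNF609, a pair of paralogous zinc finger genes, and NIPBL and MAU2, the genes of the cohesin loader, were followed through every library of a depletion series in HEK293T, an established cell line from human embryonic kidney. They were chosen by gene name, with no measured value in the rule, and make 4 of the 60665 genes in the count table. The 35 libraries are total RNA after removal of ribosomal RNA, in 15 groups. All cells were transfected with siPOOLs, complex pools of small interfering RNAs, at 5 nM for 72 h, and the controls received a control siPOOL. The series asks how the Integrator subunit INTS13 and transcription factors that interact with Integrator, a complex that cleaves and terminates nascent RNA, regulate genes, and whether they act in glucose starvation. Starved cells spent the last 24 h in glucose-free medium.

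A first set of libraries, carrying the numbers 1 and 2, held control cells (n = 3) and cells depleted of TSPYL2, ZEB1, ZNF608, ZNF609 or ZNF687 (n = 2 each). A second set, numbered 3 and 4, held control cells (n = 4), cells depleted of INTS13, HDGF or ZNF655 (n = 2 each), starved control cells (n = 4), and starved cells depleted of INTS13 or of HDGF (n = 2 each). The last set held ZMYND8-depleted cells (n = 2) and the controls labelled for them (n = 2). The labels name no control for the ZNF655 siPOOL, which was therefore compared with second-set controls. Nothing in the labels says that the libraries of a group came from separate cultures, so the p-values measure the spread between these libraries. All libraries are of 1 cell line, and each depletion lowers a transcript without removing the gene.

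Cohesin is a ring of SMC1A, SMC3, RAD21 and a STAG subunit that holds sister chromatids together and extrudes chromatin loops. NIPBL, with its partner MAU2, loads cohesin on DNA and drives loop extrusion, and NIPBL loses its stability without MAU2. Loss of 1 copy of NIPBL causes Cornelia de Lange syndrome. The mouse form of ZNF609 binds both Nipbl and Integrator in neural progenitors, which ties ZNF609 to the loader. ZNF609 also gives a circular RNA from an exon of the same locus, which counts per gene cannot tell from the linear transcript.

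Depth ran from 16766673 to 50790278 counts per library (median 25622498). Markers of the line were present, with medians of 490 CPM (counts relative to library size) for VIM and 197 CPM for LIN28B. KRT8 was lower, at 6.37 CPM, and PAX2 had 0.872 CPM. Marker values are not TMM-scaled, whereas CPM values of all other genes are. Blood markers were at or near 0 (CD3E with no count in any library, PTPRC with at most 1). Of the other markers looked for as absent, PECAM1, CDH5, ALB and DCN had medians of at most 0.0785 CPM. COL1A1, a fibroblast marker, was present at a median of 4.39 CPM (1.07 to 9.45). Each of the 9 siPOOL targets fell in its own depletion, to between 8.36% (HDGF) and 56.1% (ZNF608) of control. The number 1 libraries of the first set stood apart from the number 2 libraries: ribosomal protein genes took 10.5 to 16.8% of their counts, against 7.51 to 10.2%. In the other sets that share was 5.57 to 8.51%. A gene was called where its p in edgeR's two-sided quasi-likelihood test, from 1 fit of all 35 libraries, stayed under 0.05 after Benjamini-Hochberg adjustment over the 19275 genes tested. Log2 fold changes are given with their standard error (SE).

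Positions are on hg38. ZNF608 (ENSG00000168916.15) lies on the minus strand at chr5:124636913-124748807, with 6922 bases of merged exons. ZNF609 (ENSG00000180357.9) lies on the plus strand at chr15:64460742-64686068, with 12112 bases of exons. NIPBL (ENSG00000164190.19) lies on the plus strand at chr5:36876769-37066413, with 12519 bases of exons. MAU2 (ENSG00000129933.21) lies on the plus strand at chr19:19320829-19358754, with 10996 bases of exons. Genes inside their bounds had few counts: the most was KRT18P31, a pseudogene in NIPBL with a median of 48 counts against 2632 for NIPBL.

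NIPBL has a divergent neighbour, NIPBL-DT (ENSG00000285967.1), a noncoding gene that starts on the opposite strand. Their start positions in the table leave 68 bases between them. The promoter window of NIPBL is shown because both genes start from it and their levels are compared in the account of starvation. It is the RefSeq window on GRCh38.p14, chr5:36876519-36876818, plus strand, 300 bases, and the capitals mark the 68 bases between the start of NIPBL-DT and that of NIPBL.

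NIPBL promoter: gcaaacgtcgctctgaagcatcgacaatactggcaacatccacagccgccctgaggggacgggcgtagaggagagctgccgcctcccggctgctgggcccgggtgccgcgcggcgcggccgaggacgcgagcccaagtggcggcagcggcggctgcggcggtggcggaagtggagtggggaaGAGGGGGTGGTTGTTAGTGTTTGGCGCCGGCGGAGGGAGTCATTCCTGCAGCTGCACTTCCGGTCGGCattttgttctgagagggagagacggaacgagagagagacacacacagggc

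The window has a GC content of 67.0% and 30 CpG dinucleotides, against medians of 58.7% and 14 over 35116 RefSeq promoter windows of the same length. The windows of ZNF609 (62.7% GC, 28 CpG) and MAU2 (58.7%, 27 CpG) are also rich in CpG. ZNF608 differs, with 50.7% GC and 6 CpG, with 1 match to the TATA box (TATAAA, in 11.5% of all windows) and 3 to the CCAAT box (CCAAT, in 34.6%), and none of the other members matches either. Its paralog ZNF609 has 2 matches to the ETS core (CCGGAA, in 17.2%), and NIPBL has 1, whose window also holds 1 GC box (GGGCGG, in 45%), as does that of MAU2. No member holds the E-box (CACGTG, in 7.26%) or the NRF1 core (GCATGCGC, in 3.05%). Motifs were searched on both strands, and none contains the letters of another; a match is a description of the window.

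All 4 genes were well counted. Their counts ran from 471 (ZNF608) to 4849 (NIPBL) over single libraries, so each passed the filter on low counts in any group. Per kilobase of exon, the loader genes were the higher pair in the 9 control libraries with glucose: medians were 8.21 CPM per kb for MAU2 (4.77 to 8.82) and 7.75 for NIPBL (6.17 to 9.95). ZNF608 had 4.17 (2.72 to 6.99) and ZNF609 3.92 (2.52 to 4.63). All neighbours in this order overlapped in their ranges, NIPBL with ZNF608 included, and the range of MAU2 also overlapped that of ZNF608.

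**Figure D1:**
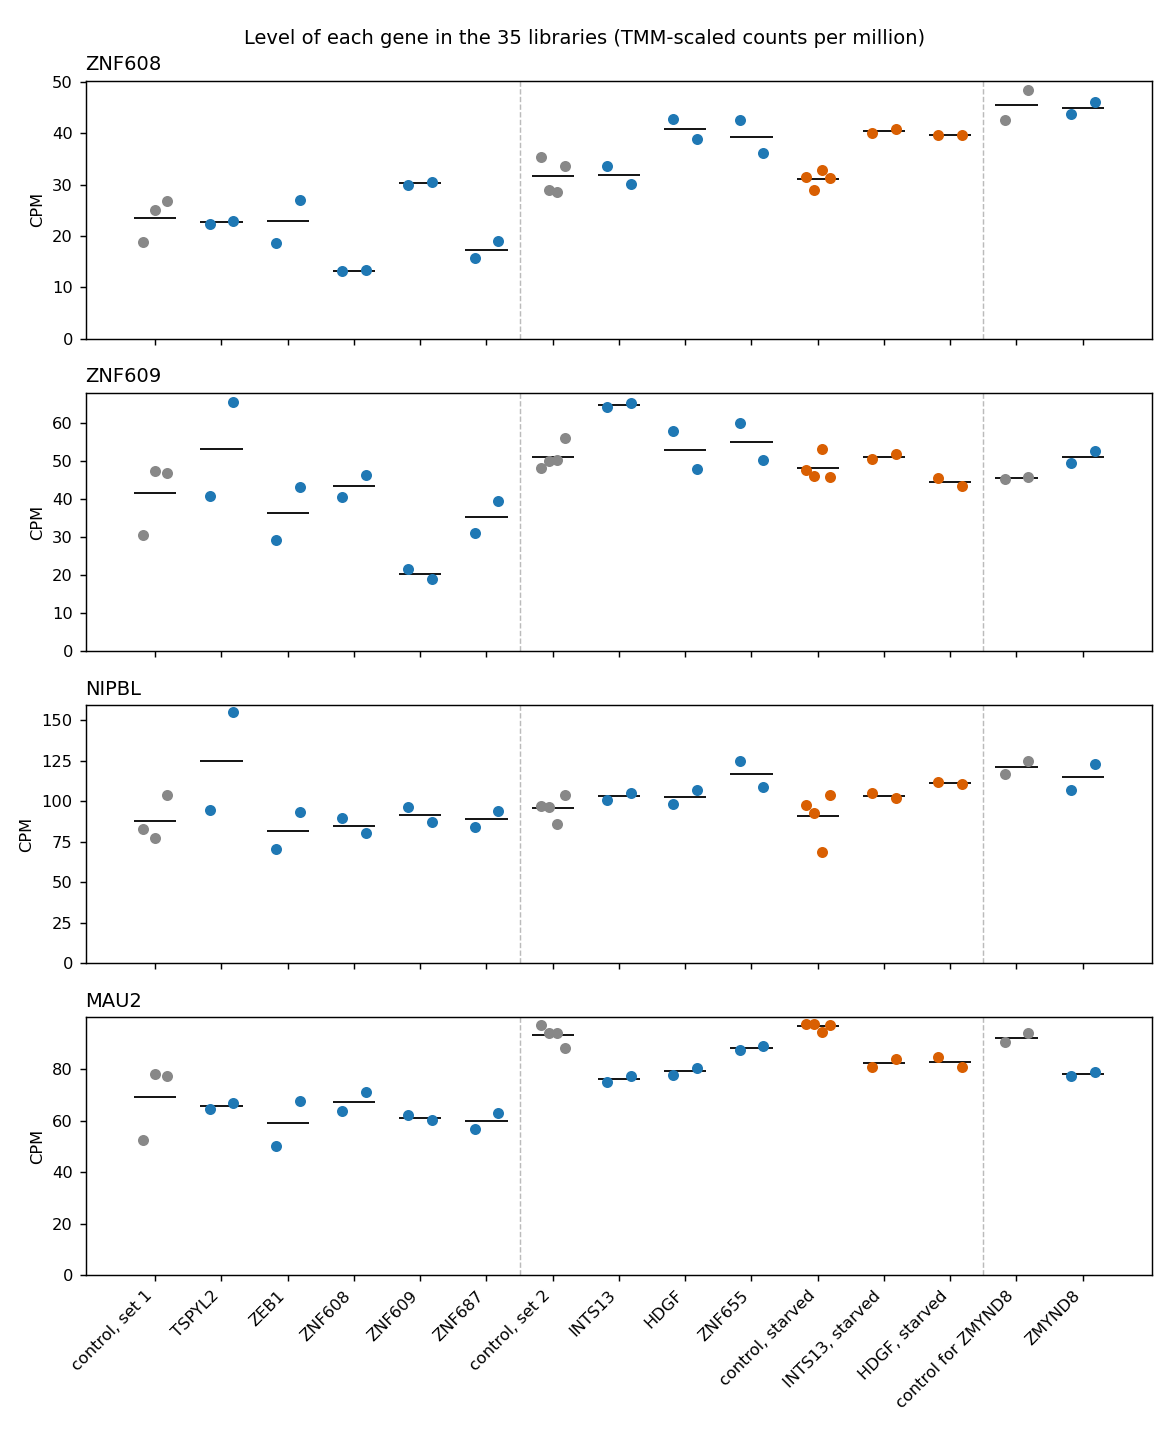
Level of each gene in every library, in TMM-scaled CPM on an axis from 0, with 1 point per library and a black line at the group mean. Grey points are controls, blue points depletions and orange points starved cells, and dashed lines part the 3 sets. ZNF608 and ZNF609 are lowest in their own depletions, and the first-set controls spread widely for ZNF609 (30.6 to 47.5 CPM) and MAU2 (52.4 to 77.9 CPM).

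The lowest and highest libraries differ between the genes. ZNF608 ran from 13.1 CPM in its own depletion to 48.4 CPM in a control labelled for ZMYND8 (median of 35 libraries 31.2). ZNF609 ran from 18.9 CPM in its own depletion to 65.6 CPM in TSPYL2 library 2 (median 47.5). NIPBL ran from 68.6 CPM in starved control 4a to 155 CPM, again in TSPYL2 library 2 (median 98.1). MAU2 ran from 50.3 CPM in ZEB1 library 1 to 97.6 CPM in starved control 3a (median 78.7). In controls with glucose, ZNF608 was lowest in the first set (23.6 ± 4.21 CPM, SD, n = 3), higher in the second (31.6 ± 3.40, n = 4) and highest in controls labelled for ZMYND8 (45.4 ± 4.16, n = 2), with no overlap. The sets were not compared by a test.

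The targeted genes were examined first. ZNF608 had 13.1 and 13.4 CPM in the ZNF608-depleted libraries, against 18.8, 25.1 and 26.8 CPM in controls 1, 2a and 2b. The groups did not overlap, and ZNF608 fell to 56.1% of control (log2 fold change -0.84, SE 0.14, edgeR adjusted p = 0.000894). In this contrast 2.76% of all genes were called. ZNF609 had 21.7 and 18.9 CPM in its own depletion, against 30.6, 47.5 and 46.9 CPM in the same controls. It fell to 48.7% (log2 fold change -1.04, SE 0.18, adjusted p = 0.00466), where 0.571% of all genes were called. Against the control of the same number, ZNF608 stood at 69.5% in number 1 and 51.6% in number 2, and ZNF609 at 70.9% and 40.0%. Both calls were lost when the first set was fitted by itself, at nearly the same fold (-0.84, adjusted p = 0.238, and -1.03, adjusted p = 0.788). With the replicate block in that set, both passed (-0.79, adjusted p = 0.0121, where 1.76% of all genes were called, and -0.93, adjusted p = 0.0364, where 0.190% were called). The call on ZNF609 was also lost without ZNF609 library 1 (adjusted p = 0.0665), without library 2 (0.159), and with the a and b controls summed (0.0647). In bulk RNA, fewer cells of a kind and less RNA per cell cannot be told apart.

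ZNF608 was higher on average in ZNF609-depleted cells, whereas ZNF609 in ZNF608-depleted cells lay inside the control range. Neither difference passed the test in the fit of all libraries. ZNF608 had 30 and 30.5 CPM in ZNF609-depleted cells, above each of the controls (18.8, 25.1 and 26.8 CPM). The mean was 128% of control (log2 difference 0.36, SE 0.14, 95% interval 0.08 to 0.64), which did not pass the adjusted threshold (edgeR adjusted p = 0.332). Libraries of the first set pair by number, and with the replicate block the difference passed (0.41, adjusted p = 0.0423, where 2.23% of all genes were called). It did not pass with the block numbered by titles (0.33, adjusted p = 0.151), in the first set alone with the replicate block (0.42, adjusted p = 0.305), or with the a and b controls summed (0.42, adjusted p = 0.48). Within number 1 it was 160% of the control and within number 2 it was 117%. With the number 2 libraries alone the log2 difference was 0.24 (adjusted p = 0.153), a fit chosen after the data were seen in which 14.2% of all genes were called. That fit leaves 1 library of each depletion, which is assumed to vary like the others.

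In the other direction, ZNF609 had 40.7 and 46.4 CPM in ZNF608-depleted cells, inside the range of the controls (30.6 to 47.5 CPM). The log2 difference was 0.06 (SE 0.17, 95% interval -0.30 to 0.42, adjusted p = 0.93), and it was -0.12 without control 1. Within numbers it was 133% and 98.3% of control. The interval leaves room for a rise as large as that of ZNF608 in ZNF609-depleted cells, and the difference between those values was not tested.

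The depletions were also compared with each other directly, which leaves the controls out. ZNF608 was lower in ZNF608-depleted than in ZNF609-depleted cells by a log2 difference of -1.19 (SE 0.15, adjusted p = 4.25e-05). ZNF609 was higher by 1.11 (SE 0.20, adjusted p = 0.00306). In this contrast 0.887% of all genes were called. NIPBL (-0.11, SE 0.18, adjusted p = 0.977) and MAU2 (0.14, SE 0.13, adjusted p = 0.902) did not pass. The calls on ZNF608 and ZNF609 were both lost when the first set was fitted by itself (adjusted p = 0.171 and 0.605). In that fit 0.0106% of all genes were called. With the replicate block in that set both passed (adjusted p = 0.00235 and 0.0153, where 0.449% of all genes were called). Without each of the 4 libraries in turn, the ZNF608 difference ran from -1.21 to -1.18 and the ZNF609 difference from 1.00 to 1.21. These fits leave 1 library in a group, and the call on ZNF609 was not kept in all of them.

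Summed per kilobase of exon, the paralogs together gave 6.84 ± 1.39 CPM per kb in first-set controls (SD, n = 3). The sum was 5.25 and 5.76 in the ZNF608-depleted libraries and 6.13 and 5.96 in the ZNF609-depleted libraries. Controls had 5.24, 7.54 and 7.75, so the sums of both depletions lay inside the control range. The balance between the paralogs lay outside the control range in both. ZNF608 made up 51.8, 48.0 and 50% of the sum in the controls, 36.0 and 33.5% after its own depletion, and 70.8 and 73.9% after ZNF609 depletion. As the siPOOL targets form this share, it restates the depletions and was not tested.

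**Figure D2:**
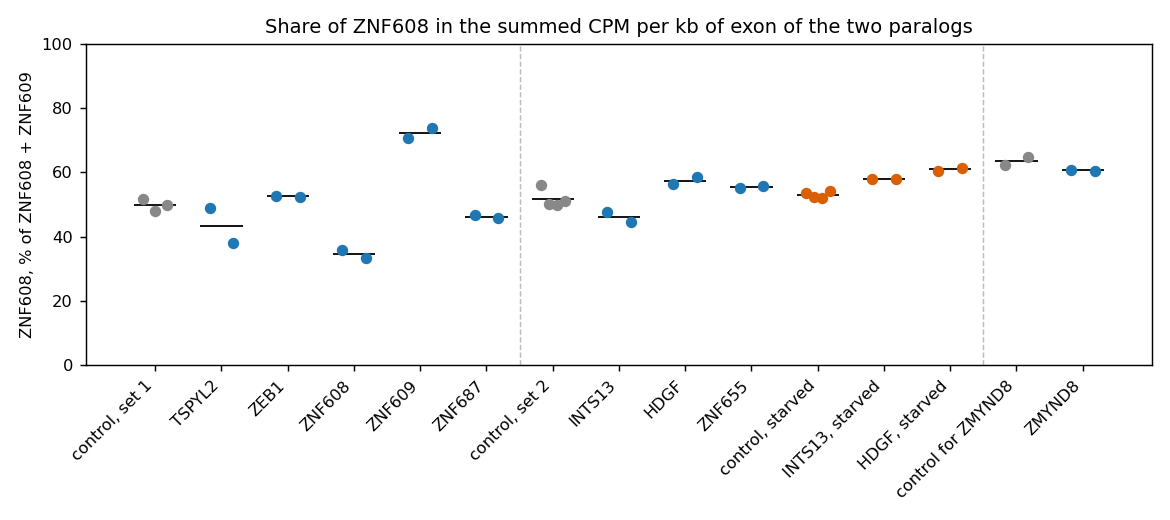
Share of ZNF608 in the summed CPM per kb of exon of ZNF608 and ZNF609, in percent, with 1 point per library and black lines at group means (grey controls, blue depletions, orange starved). The share is 48.0 to 51.8% in first-set controls, 33.5 to 36.0% after ZNF608 depletion and 70.8 to 73.9% after ZNF609 depletion.

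Elsewhere the share ran from 38.0% (TSPYL2 library 2) to 64.9% (a control labelled for ZMYND8). Second-set controls held 49.8 to 56.2%, HDGF-depleted cells 56.4 and 58.6%, and INTS13-depleted cells 47.7 and 44.6%, or 58.1 and 58.0% when starved.

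The loader genes did not pass the test in either paralog's depletion. NIPBL had 89.5 and 80.2 CPM in ZNF608-depleted cells and 96.2 and 87.2 CPM in ZNF609-depleted cells, against 82.9, 77.2 and 104 CPM in the controls. Both pairs lay inside the control range, with log2 differences of -0.06 (SE 0.17, 95% interval -0.40 to 0.28, adjusted p = 0.935) and 0.06 (SE 0.17, -0.28 to 0.40, adjusted p = 0.959). MAU2 had 63.8 and 70.9 CPM in ZNF608-depleted cells and 62.1 and 60.2 CPM in ZNF609-depleted cells. First-set controls had 52.4, 77.9 and 77.4 CPM, so control 1 lay below and controls 2a and 2b above all of these libraries. The log2 differences were -0.04 (SE 0.12, -0.28 to 0.20, adjusted p = 0.933) and -0.18 (SE 0.12, -0.42 to 0.06, adjusted p = 0.681). With the number 2 libraries alone, MAU2 was lower in ZNF609-depleted cells (-0.35, adjusted p = 0.00106). Against the same number it was 118% of control in number 1 and 77.5% in number 2, so the numbers point in opposite directions.

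Over all depletions with glucose, 34 pairs of a gene and a depletion other than its own can be formed. None of the 34 was called in the edgeR fit of all libraries. DESeq2 called 1 (MAU2 in INTS13 depletion, where it called 16.5% of all genes). An unadjusted p under 0.05 in edgeR was found in 8 of the 34. Over the 19275 genes tested, between 1751 (ZNF687) and 4898 (INTS13) had such a p in a depletion. In 9 pairs the groups did not overlap, and how often that held over all genes was not counted. Of all genes, 2.22% were called in TSPYL2 depletion, 3.77% in ZEB1, 0.254% in ZNF687, 12.8% in INTS13, 4.49% in HDGF, 11.5% in ZNF655 and 0.747% in ZMYND8 depletion. The count of called pairs depended on the fit. It was 7 with the replicate block, which called 22.4% of all genes in INTS13, 9.27% in HDGF and 20.9% in ZNF655 depletion. It was 7 when each set was fitted by itself, and 0 with DESeq2 size factors or with the a and b controls summed. The median biological coefficient of variation was 0.173 in the first set by itself, 0.0683 in the second set and 0.0537 in the ZMYND8 set. It was 0.123 in the fit of all and 0.0863 with the replicate block. Second-set numbers did not pair, so a pass with the block in INTS13, HDGF or ZNF655 depletion is no separate support. In the second set alone, 30.1% of all genes were called in INTS13, 16.0% in HDGF and 29.5% in ZNF655 depletion, and in the ZMYND8 set alone 9.42% in ZMYND8 depletion.

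**Figure D3:**
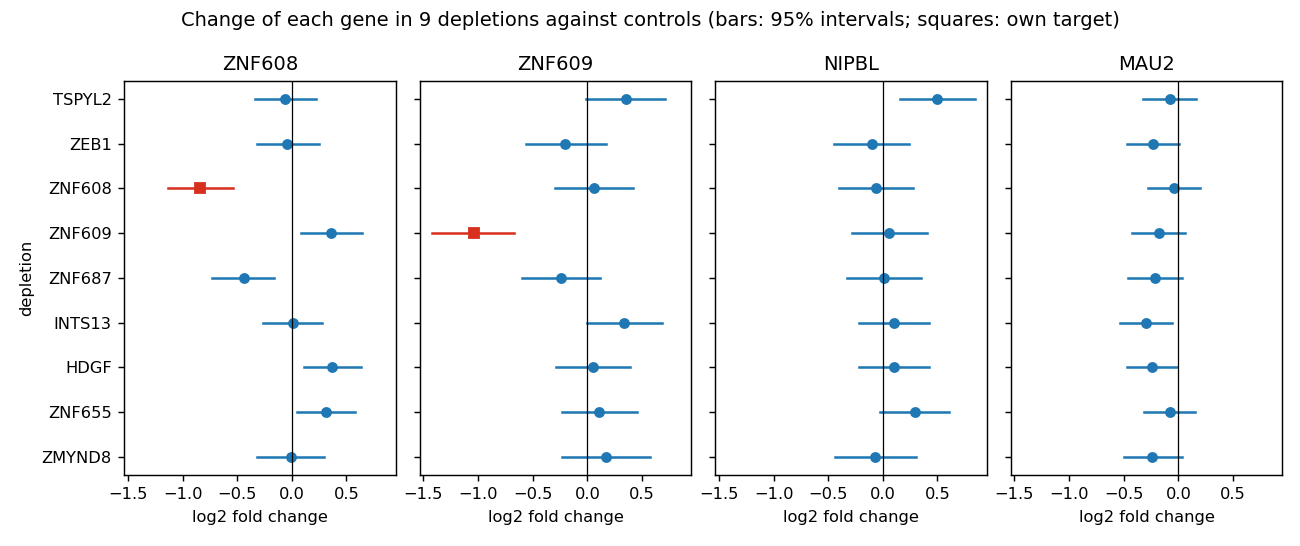
Log2 fold change of each gene (panels) in the 9 depletions (rows) against the controls of their set, with 95% intervals from the fit of all libraries. Red squares mark a gene's own depletion, -0.84 for ZNF608 and -1.04 for ZNF609, and blue circles the 34 other pairs. In the MAU2 panel each estimate lies below 0, from -0.30 to -0.04.

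MAU2 had the most uniform direction of the 4 genes. Its estimate lay below control in all 9 depletions, between -0.30 and -0.04, though depletions of a set share their controls and so are not independent. The direction turned with the replicate block in ZNF608 depletion (0.01), with the a and b controls summed in ZNF608 (0.04) and TSPYL2 depletion (0.00), and without control 2a or 2b in both (0.01 in TSPYL2 and 0.05 in ZNF608 depletion). In INTS13 depletion MAU2 had 74.8 and 77.1 CPM, below all 4 controls (97.0, 94.0, 94.0 and 88.1 CPM). That is 81.4% of control (log2 difference -0.30, SE 0.11, adjusted p = 0.0865), and it passed in the second set alone (-0.30, adjusted p = 0.000121) and with the replicate block (-0.30, adjusted p = 0.0126).

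HDGF depletion gave 77.7 and 80.4 CPM of MAU2, again below the same controls. The mean was 84.7% of control (-0.24, SE 0.11, adjusted p = 0.288), which passed in the second set alone (-0.24, adjusted p = 0.00211). In ZMYND8 depletion, which has controls of its own, MAU2 had 77.3 and 78.7 CPM against 90.3 and 93.8 CPM. It stood at 84.8% of control (-0.24, SE 0.13, adjusted p = 0.604), which passed in that set alone (-0.25, adjusted p = 0.0164). ZNF655 depletion differed less, with 87.5 and 88.9 CPM of MAU2 overlapping the controls (-0.08, SE 0.11, adjusted p = 0.724).

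In the first set MAU2 depended on the number of the library. In ZEB1 depletion it had 50.3 CPM in number 1 and 67.6 CPM in number 2, which are 95.9% and 87.0% of the controls of the same number (-0.23, SE 0.12, adjusted p = 0.247). That difference passed without control 1 (-0.40, adjusted p = 0.00735), where 21.2% of all genes were called, or without ZEB1 library 2 (-0.47, adjusted p = 0.00899), where 36.3% were called. In TSPYL2 and ZNF687 depletion MAU2 stood above control in number 1 (123% and 108%) and below it in number 2 (86.0% and 80.8%). With the number 2 libraries alone, both were called (-0.23, adjusted p = 0.0227, and -0.30, adjusted p = 0.0213), where 17.1% and 2.18% of all genes were called.

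Estimates of ZNF608 lay on either side of control. In HDGF depletion it had 42.8 and 38.8 CPM, above all 4 controls (35.4, 28.9, 28.5 and 33.6 CPM). This was 129% of control (0.37, SE 0.13, adjusted p = 0.115), and it passed in the second set alone (0.36, adjusted p = 0.00391) and with the replicate block (0.37, adjusted p = 0.0187). ZNF655 depletion gave 42.5 and 36.1 CPM, also above those controls (0.31, SE 0.13, adjusted p = 0.121; second set alone 0.31, adjusted p = 0.00649). Against the controls labelled for ZMYND8 (42.5 and 48.4 CPM) the direction of ZNF608 in ZNF655 depletion was the opposite (-0.21, adjusted p = 0.411), so this difference rests on the choice of control. In ZNF687 depletion ZNF608 had 15.7 and 19.0 CPM, lower than controls 2a and 2b and on either side of control 1. The mean was 73.6% of control (-0.44, SE 0.14, adjusted p = 0.247), 83.4% within number 1 and 73.3% within number 2. The difference passed without control 1 (-0.58, adjusted p = 0.0365, with 0.706% of all genes called). That fit sets ZNF687 library 1 against number 2 controls alone, so number and depletion cannot be told apart in it.

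ZNF609 had 64.4 and 65.3 CPM in INTS13 depletion, above all 4 controls (48.2, 50.1, 50.3 and 56.1 CPM). The mean was 127% of control (0.34, SE 0.16, adjusted p = 0.19), which passed in the second set alone (0.34, adjusted p = 0.00208) and with the replicate block (0.34, adjusted p = 0.0318). ZNF608 did not share this difference, with 33.6 and 30.1 CPM in INTS13 depletion (0.01, SE 0.13, adjusted p = 0.972). In ZMYND8 depletion ZNF609 had 49.5 and 52.6 CPM against 45.2 and 45.8 CPM (0.17, SE 0.19, adjusted p = 0.913).

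NIPBL was highest in TSPYL2 depletion, where the libraries differed: 94.9 CPM in number 1 and 155 CPM in number 2. The mean was 142% of the controls (0.50, SE 0.16, 95% interval 0.16 to 0.84, adjusted p = 0.104), 115% within number 1 and 170% within number 2. It passed with the replicate block (0.51, adjusted p = 0.0164), a fit that called 18.3% of all genes in this depletion, and without TSPYL2 library 1 (0.80, adjusted p = 0.00723, with 3.99% of all genes called), and it was 0.10 without TSPYL2 library 2. It did not pass with the block numbered by titles (0.45, adjusted p = 0.0817), in the first set alone with the replicate block (0.53, adjusted p = 0.106), or with the a and b controls summed (0.50, adjusted p = 0.159). ZNF609 followed the same libraries, with 40.9 and 65.6 CPM, or 134% and 139% of control within numbers (0.35, SE 0.17, adjusted p = 0.306; replicate block 0.41, adjusted p = 0.0217). That value did not pass with the block by titles (0.28, adjusted p = 0.295) or in the first set alone with the replicate block (0.42, adjusted p = 0.137). TSPYL2 library 2 had the lowest ribosomal protein share of the first set (7.51%), and its part in these values was not tested.

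ZNF655 depletion gave 125 and 109 CPM of NIPBL, above all 4 controls (97.1, 96.3, 85.7 and 104 CPM). The log2 difference was 0.29 (SE 0.16, adjusted p = 0.263). It passed in the second set alone (0.29, adjusted p = 0.0402), but against the controls labelled for ZMYND8 (117 and 125 CPM) it was -0.04 (adjusted p = 0.914). In INTS13 (101 and 105 CPM), HDGF (98.1 and 107 CPM) and ZMYND8 depletion (107 and 123 CPM) NIPBL overlapped its controls, with estimates of 0.10, 0.10 and -0.07.

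Within the first set the members followed the make-up of the library. Leaving out each paralog's own depletion, the correlation of log2 CPM with the ribosomal protein share was -0.91 for ZNF609 (Spearman -0.95, 11 libraries) and -0.84 for MAU2 (Spearman -0.86, 13 libraries). These are descriptions over libraries that share controls, treatments and numbers, and both remained after the 2 farthest libraries were left out (-0.90 and -0.75). ZNF608 (-0.62, 11 libraries) and NIPBL (-0.60, 13 libraries) followed it less closely, and the value of ZNF608 was -0.26 without the 2 farthest. In the 18 libraries of the second set the values were -0.49 for ZNF609, -0.27 for ZNF608, -0.37 for NIPBL and, with the opposite sign, 0.44 for MAU2. The part of library make-up in the differences of the first set was not tested.

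**Figure D4:**
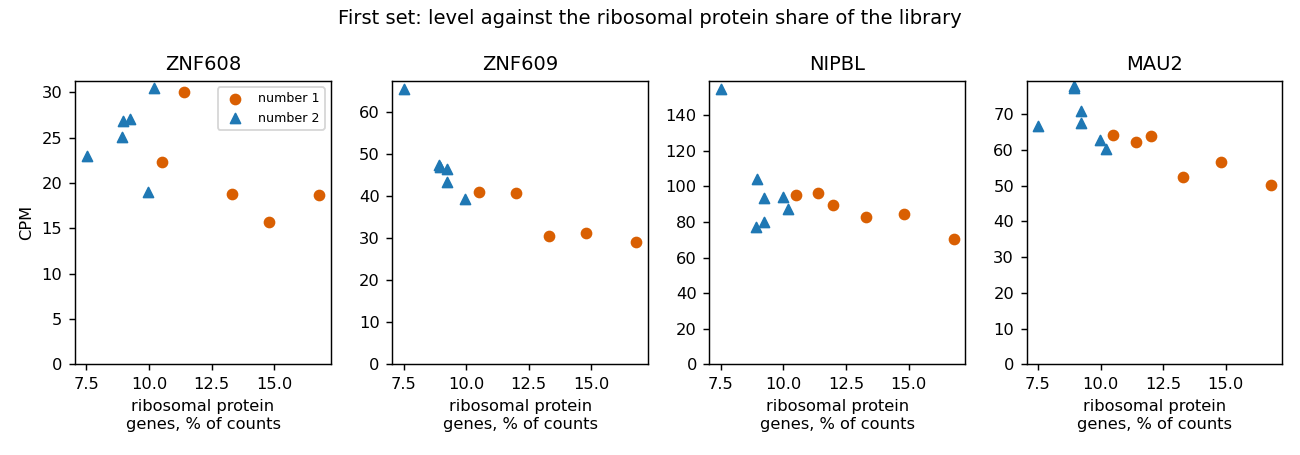
Level of each gene (CPM, axis from 0) against the percentage of counts in ribosomal protein genes, for the first-set libraries without a paralog's own depletion. Circles are number 1 and triangles number 2 libraries. ZNF609 and MAU2 are lower toward the right, and number 1 libraries (10.5 to 16.8%) lie to the right of number 2 libraries (7.51 to 10.2%).

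Glucose starvation of control cells left all 4 genes near their level, while 16.8% of all genes were called. ZNF608 had 31.5, 29.0, 32.8 and 31.2 CPM when starved, against 35.4, 28.9, 28.5 and 33.6 CPM (log2 difference -0.02, SE 0.11, 95% interval -0.24 to 0.20, adjusted p = 0.928). ZNF609 had 47.8, 46.0, 53.1 and 45.9 CPM, against 48.2, 50.1, 50.3 and 56.1 CPM (-0.09, SE 0.14, -0.37 to 0.19, adjusted p = 0.739). The groups overlapped for both paralogs.

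NIPBL had 97.9, 92.8, 68.6 and 104 CPM when starved, against 97.1, 96.3, 85.7 and 104 CPM (-0.08, SE 0.13, -0.34 to 0.19, adjusted p = 0.758). Starved control 4a was its lowest library, and without it the difference was 0.04. MAU2 had 97.6, 97.5, 94.2 and 97.1 CPM, against 97.0, 94.0, 94.0 and 88.1 CPM (0.05, SE 0.09, -0.14 to 0.24, adjusted p = 0.773). None of the 4 genes had an unadjusted p under 0.05 in edgeR, and none was called by DESeq2 or in the second set alone, where 34.7% of all genes were called.

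In INTS13-depleted cells the estimates of the paralogs under starvation had opposite signs. ZNF608 went from 33.6 and 30.1 CPM to 40.0 and 40.9 CPM, and ZNF609 from 64.4 and 65.3 CPM to 50.5 and 51.8 CPM, with no overlap in either. The log2 differences were 0.35 (SE 0.15, adjusted p = 0.318) and -0.34 (SE 0.19, adjusted p = 0.492), in a contrast where 1.32% of all genes were called. Both passed in the second set alone (adjusted p = 0.0198 and 0.0192, where 12.7% of all genes were called). The test of whether starvation acted differently in INTS13-depleted than in control cells was not passed by any of the 4 genes. For ZNF608 that difference was 0.37 (SE 0.18, 95% interval -0.01 to 0.75, adjusted p = 0.884; second set alone 0.38, adjusted p = 0.113), and for ZNF609 it was -0.26 (SE 0.24, adjusted p = 1). Of all genes, 0.0156% passed that test, and 1.64% in the second set alone.

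**Figure D5:**
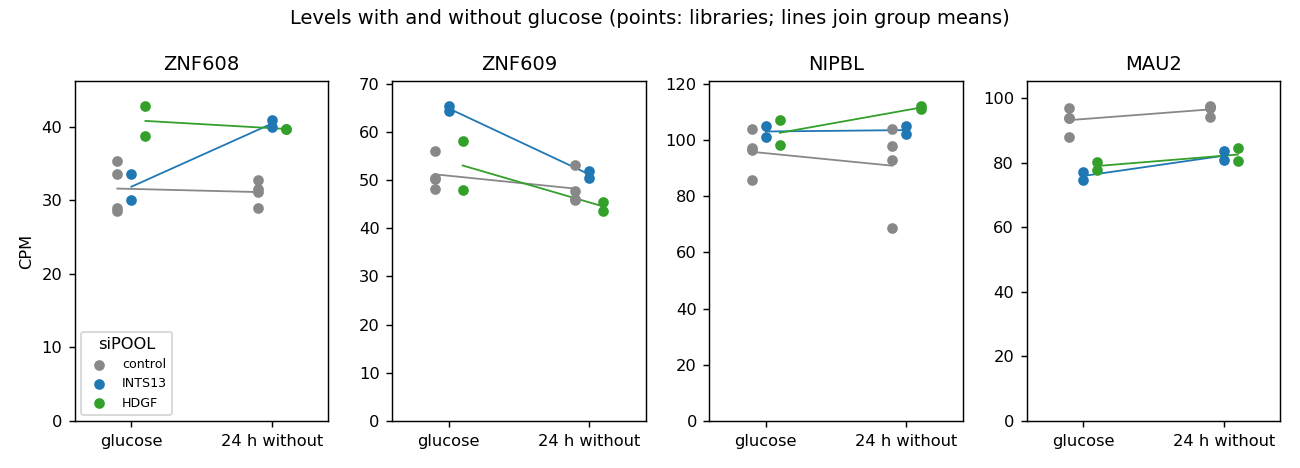
Levels (CPM, axis from 0) with glucose and after 24 h without it, in cells with control (grey), INTS13 (blue) and HDGF (green) siPOOL, with 1 point per library and lines joining group means. Control means stay near level for all 4 genes, while in INTS13-depleted cells ZNF608 goes from 31.8 to 40.5 CPM and ZNF609 from 64.9 to 51.1 CPM.

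In HDGF-depleted cells ZNF608 had 42.8 and 38.8 CPM with glucose and 39.7 CPM in both starved libraries (-0.04, SE 0.15, adjusted p = 0.939). ZNF609 went from 58.0 and 48.0 CPM to 45.5 and 43.5 CPM, with no overlap (-0.25, SE 0.19, adjusted p = 0.594; second set alone adjusted p = 0.0802). In this contrast 3.54% of all genes were called, and 17.0% in the second set alone. For the difference of this starvation effect from that in control cells, 0% of all genes were called in edgeR (909 at an unadjusted p under 0.05) and 0.220% in the second set alone. Estimates of that difference for the 4 genes ran from -0.16 (ZNF609) to 0.20 (NIPBL).

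Among starved cells the depletions were set against starved controls. ZNF608 was above all 4 starved controls (29.0 to 32.8 CPM) in both depletions: 40.0 and 40.9 CPM with INTS13 depleted (0.38, SE 0.13, adjusted p = 0.107) and 39.7 CPM in both libraries with HDGF depleted (0.35, SE 0.13, adjusted p = 0.265). In these contrasts 3.86% and 0.659% of all genes were called. MAU2 was below all 4 starved controls (94.2 to 97.6 CPM), at 80.8 and 83.7 CPM with INTS13 depleted (-0.23, SE 0.11, adjusted p = 0.315) and at 84.5 and 80.7 CPM with HDGF depleted (-0.23, SE 0.11, adjusted p = 0.472). All 4 differences passed in the second set alone, with adjusted p-values of 0.00278 and 0.0136 for ZNF608 and 0.00457 and 0.0112 for MAU2. There 16.3% and 7.82% of all genes were called. These depletions share the starved controls.

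NIPBL-DT, the divergent neighbour of NIPBL, was looked at for its shared promoter, and its change was singled out after the values were seen. With glucose it had 26.2, 24.9, 26.1 and 20.4 CPM in control cells, and 29.9, 31.0, 30.5 and 28 CPM after starvation. The groups did not overlap, and NIPBL-DT rose to 122% (0.29, SE 0.10, adjusted p = 0.0378). The call was lost without control 3b or 4b or without starved control 3a, 3b or 4a (log2 difference 0.22 to 0.30). It was also lost with no low-count filter and with a and b controls summed (0.28, adjusted p = 0.271). NIPBL itself stayed at 95% (-0.08, SE 0.13), and whether the neighbours differ in their change was not tested. In INTS13-depleted cells NIPBL-DT had 28.4 and 30.1 CPM with glucose (0.26, SE 0.12, adjusted p = 0.153), and in ZNF608-depleted cells 20.1 and 22.8 CPM against 23.1 to 30.3 CPM in controls (-0.33, SE 0.12, adjusted p = 0.168).

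Other genes of the cohesin cycle were read from a list of 25, of which 23 could be tested. The list holds the ring subunits, the release factors WAPL, PDS5A and PDS5B, acetylation and protection factors, separase and securin, CTCF, partners of the loader and meiotic forms. In ZNF608 depletion, where 2.76% of all genes were called, the median log2 difference of the list was -0.02 (-0.00 over all genes). Of the 23, 1 was called higher and none lower. That gene was REC8, the meiotic form of the ring subunit RAD21, with 0.463 and 0.700 CPM (18 and 34 counts) against 0.195, 0.122 and 0.194 CPM (6, 4 and 9 counts). REC8 rose (1.75, SE 0.39, adjusted p = 0.0104) from a level near the floor of detection, and the call was lost without ZNF608 library 2. With the replicate block, in which 8.65% of all genes were called, 2 of 23 were called.

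In ZNF609 depletion, where 0.571% of all genes were called, none of the 23 was called in edgeR (4 at an unadjusted p under 0.05, none in DESeq2). Over the 19275 genes tested, 1891 had an unadjusted p under 0.05 there. The median of the list was 0.01, against -0.02 over all genes. Of 18 Integrator genes, none was called in ZNF609 depletion (1 at an unadjusted p under 0.05, none in DESeq2). In ZNF608 depletion, where 2.76% of all genes were called, 1 of 18 was called. It was INIP, a subunit of the single-stranded DNA binding complex that joins INTS3. INIP had 31.5 and 29.0 CPM against 52.4, 39.5 and 37.8 CPM and fell (-0.51, SE 0.12, adjusted p = 0.0198). The call on INIP was lost without control 1 or without either ZNF608 library.

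Starvation of control cells called 2 of the 23 cohesin genes, 1 in each direction (median -0.11, against 0.01 over all genes). In the fit of all libraries that share is below the 16.8% of all genes called in this contrast. In the second set alone and with no low-count filter it was above the share of all genes. SMC1A, the ring subunit that pairs with SMC3, rose from 398, 377, 363 and 423 CPM to 551, 556, 586 and 563 CPM (0.53, SE 0.15, adjusted p = 0.0152). WAPL, which takes cohesin off chromatin, fell from 230, 252, 235 and 244 CPM to 199, 194, 196 and 184 CPM (-0.31, SE 0.08, adjusted p = 0.0111). The groups did not overlap for either gene, and both calls held without each of the 8 libraries in turn and were lost with a and b controls summed. Of 18 Integrator genes 3 were called, a share near the 16.8% of all genes: INTS2 (0.27, SE 0.06, adjusted p = 0.00101) and INTS3 (0.46, SE 0.14, adjusted p = 0.0205) rose and INTS6 (-0.22, SE 0.07, adjusted p = 0.0284) fell. INTS6 overlapped between the groups, and its call was lost without control 3b, 4a or 4b or starved control 4a or 4b. That of INTS3 was lost without control 3b or 4a, and all 3 were lost with a and b controls summed. The calls on INTS2 and INTS6 were also lost with no low-count filter.

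In INTS13 depletion 3 of the 23 cohesin genes were called, against 12.8% of all genes. In HDGF depletion it was 1 of 23, against 4.49%, and in ZNF655 depletion 1 of 23, against 11.5%. STAG1, a ring subunit, rose in HDGF depletion (136 ± 7.54 to 184 ± 1.95 CPM, SD, n = 4 and 2; 0.44, SE 0.09, adjusted p = 0.00227). In INTS13 depletion HDAC8, which removes acetyl groups from SMC3, rose (0.40, SE 0.10, adjusted p = 0.00655), and CDCA5, which protects cohesin from WAPL, fell (-0.31, SE 0.07, adjusted p = 0.00417). AFF4, a scaffold of the super elongation complex, also fell there, to 67.3% (-0.57, SE 0.13, adjusted p = 0.00287). CDCA5 fell in ZNF655 depletion too (-0.29, SE 0.07, adjusted p = 0.0093), a call lost against the controls labelled for ZMYND8. The calls on STAG1 and HDAC8 were lost without either depleted library, and those on CDCA5 without INTS13 library 4 and ZNF655 library 3. With a and b controls summed the call on HDAC8 was lost, and with no low-count filter both calls on CDCA5 were lost. These genes were named after their values were seen.

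Likeness over libraries was described by the Pearson correlation of log2 CPM, taken relative to the controls with glucose of the same set, over 10240 genes. Libraries share controls and treatments, so the values carry no test. The genes named for each member are the highest of the 10240, so high values follow in part from that choice. Medians over all genes were -0.04 for ZNF608, -0.06 for ZNF609, -0.07 for NIPBL and 0.00 for MAU2. ZNF609 was most like ATP7B (r = 0.93, 33 libraries), BCOR (0.92) and RREB1 (0.91). With its paralog, which was not picked by value, it had 0.36 (31 libraries). ZNF609 and MAU2 also followed the ribosomal protein share in the first set (-0.91 and -0.84). In the second set they had -0.49 and 0.44. The part of library make-up in the likeness was not tested. NIPBL was most like SCAF11 (0.85), VPS13A and CCDC88A (both 0.84), and MAU2 most like FLNA (0.87), MGAT4B and SPTAN1 (both 0.85), over 35 libraries each. For ZNF608 the highest values were lower, ELMO2 (0.70), PTPN3 and SEPTIN3 (both 0.69). The partners NIPBL and MAU2 hardly followed each other (0.06, 35 libraries), and the highest Pearson value between members was that of ZNF609 with NIPBL (0.46, Spearman 0.16). By ranks it was that of ZNF608 with NIPBL (0.34, Spearman 0.51, 33 libraries).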

How the data were processed

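The authors deposited raw counts per gene for 35 total RNA libraries as 1 table, described as made before duplicate removal. Per the submitters' processing notes, FastQC, cutadapt and STAR were used with hg38; no versions were stated. The kit was stranded, but which tool, annotation release and strand setting served for counting is not given in the sources used here. All 37 mitochondrial genes had 0 counts.

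Libraries were grouped by their labels. Genes were filtered with filterByExpr by group (19275 of 60665 kept) and scaled by TMM. In 1 edgeR quasi-likelihood fit of 15 group means (edgeR 4.0.16, R 4.3.3, 20 residual degrees of freedom) each comparison was a contrast. The script recovered changes planted in simulated data. The planted changes were larger than the members' differences outside their own depletions, and the simulated libraries had no effect of the number. Smaller differences were therefore not covered by that check. Positions and exon lengths are those of the deposited table. CPM values are TMM-scaled, except those of the cell type markers. The likeness used a prior count of 2 and genes whose mean log2 CPM reached 3. Genes named are the 4 members, the siPOOL targets, called genes of the lists and the 3 genes most like each member. The members and lists were chosen with earlier results of these data known.

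First-set numbers paired the libraries: deviations from group means correlated above 0.1 in 15 of 15 pairs of groups (median 0.757, 10244 genes). The titles and descriptions number the first-set controls differently, and the descriptions (1, 2a, 2b) were used. By the titles the libraries also paired (15 of 15, median 0.722), so this check does not decide between the numberings. Second-set numbers did not pair (6 of 21 pairs, median 0.00846). No replicate pair agreed within sampling noise (lowest chi-square per degree of freedom 3.1). Alternatives were DESeq2 1.42.0, DESeq2 size factors, no low-count filter, replicate blocks, each set alone, a and b controls summed and each library left out. Starved ZMYND8 libraries were not analysed here.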

Additional observations from a re-analysis of the deposited data

Results flagged for a closer look

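MAU2 in starved control 4a stood apart from the other 3 starved controls: it had 94.2 CPM, against 97.1, 97.5 and 97.6 CPM, and its gap to the nearest took 0.863 of the range of the group, above Dixon's 95% critical value. The gap is small, and the library lies inside the range of the controls with glucose (88.1 to 97.0 CPM). Of the 8 groups of 4 libraries examined (4 genes, starved and fed controls of the second set) this was the only 1 flagged, and chance flags about 1 in 20. The same library was the lowest of its group for NIPBL (68.6 CPM) and the highest for ZNF608 (32.8 CPM) and ZNF609 (53.1 CPM).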

How the results depend on the processing

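The number of the 34 pairs of a gene and a depletion that were called was 0 in the fit of all libraries, 7 with the replicate block, 3 with the block numbered by titles, 7 with each set alone, with or without the replicate block, 1 with no low-count filter, 1 with DESeq2, 0 with DESeq2 size factors or controls summed, and 5 with first-set number 2 libraries alone (chosen after seeing the data); leaving out each library gave 0 to 2. The replicate block called 22.4% of all genes in INTS13, 9.27% in HDGF and 20.9% in ZNF655 depletion. ZNF608 in its own depletion missed the threshold with the first set alone (-0.84, adjusted p = 0.238), as did ZNF609 in its own (-1.03), and both passed with the replicate block in that set (adjusted p = 0.0121 and 0.0364). ZNF609 also missed it with controls summed (-0.95) and without ZNF609 library 1 (-1.15) or 2 (-0.95); over the libraries left out it ran from -1.22 to -0.94 and was called in 3 of 5. ZNF608 in ZNF609 depletion passed with the replicate block (0.41), and MAU2 in ZNF609 depletion with number 2 alone (-0.35). Cohesin genes called in ZNF608 depletion were 2 with the replicate block and 0 with the set alone, where 8.65% and 0.0529% of all genes were called. Integrator genes were 4 and 0 in these fits. They were 2 with the block by titles and with DESeq2, where 5.19% and 6.05% of all genes were called. Counts from fits that leave 1 library in a group are not given for these lists. In ZNF609 depletion 1 cohesin gene was called with the block by titles, where 1.86% of all genes were called. In starvation of control cells, cohesin genes called were 6 with the replicate block, 4 with no filter, 9 with the set alone (9 with its block) and 0 with controls summed; Integrator genes were 5, 1, 7 (6) and 0, and 1 to 3 with each library left out. The shares of all genes called in starvation were 26.5% with the block, 6.79% with no filter, 34.7% (34.3%) with the set alone and 4.41% with controls summed.

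Directions turned only for differences not called in the fit of all libraries, though ZNF608 and NIPBL in ZNF655 depletion were called in the second set alone. With controls summed: ZNF608 in TSPYL2 (0.00), ZEB1 (0.02) and INTS13 depletion (-0.01), MAU2 in TSPYL2 (0.00) and ZNF608 depletion (0.04). With the replicate block: MAU2 in ZNF608 depletion (0.01, also with the set alone) and ZNF608 in TSPYL2 depletion (0.01, set alone); by titles, NIPBL in ZNF687 depletion (-0.02). With DESeq2 or its size factors: ZNF608 in INTS13 depletion (-0.00). With number 2 alone: ZNF608 (0.07) and NIPBL (0.04) in ZEB1, ZNF609 in ZNF608 (-0.02) and NIPBL in ZNF609 depletion (-0.05). With the controls labelled for ZMYND8: ZNF608 (-0.21) and NIPBL (-0.04) in ZNF655 depletion. The cause was not tested.

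With each library left out, ranges that crossed 0 were as follows. For MAU2: TSPYL2 -0.25 to 0.01, ZNF608 -0.21 to 0.05, starvation by HDGF -0.01 to 0.06. For NIPBL: ZEB1 -0.32 to 0.08, ZNF608 -0.15 to 0.08, ZNF609 -0.03 to 0.20, ZNF687 -0.07 to 0.15, starvation of control -0.15 to 0.04 and of INTS13-depleted cells -0.02 to 0.04, starvation by INTS13 -0.03 to 0.16. For ZNF608: INTS13 -0.09 to 0.07, TSPYL2 -0.20 to 0.04, ZEB1 -0.34 to 0.20, ZMYND8 -0.12 to 0.05, starvation of control -0.07 to 0.04 and of HDGF-depleted cells -0.12 to 0.03, starvation by HDGF -0.08 to 0.07. For ZNF609: HDGF -0.11 to 0.16, TSPYL2 -0.03 to 0.65, ZEB1 -0.51 to 0.05, ZNF608 -0.12 to 0.17, ZNF655 -0.06 to 0.19. With 2 libraries a group, leaving out 1 assumes that the other varies like the rest of the fit.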
